A study of Mus musculus with 12 samples.

Results

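The 9 circadian clock genes Per1, Per2, Per3, Cry1, Cry2, Nr1d1, Nr1d2, Dbp and Clock were followed through synthesis, processing and degradation of their RNA in mouse embryonic stem cells (mESCs). They were taken as every exonic and intronic entry of the deposited table whose transcript belongs to one of these genes by its GENCODE M1 name, which gave 27 transcripts of 9 genes among 34079 genes with an entry. All 9 genes have entries, and 8 of 9 reached the filter on low values, a mean exonic abundance of at least 20 over the 12 libraries. Per2 did not.

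RNA of DTCM23/49 XY mESCs, an established line grown with leukemia inhibitory factor and 15% fetal bovine serum, was labeled with 200 µM 4-thiouridine (4sU) for 15, 30 or 60 min. 4sU is a uridine analog that enters RNA made while it is present, so that the newly transcribed RNA can be biotinylated and pulled down. For each time, 2 biological replicates gave both a labeled and a total RNA library, which makes 6 groups of 2 libraries. Every group, total RNA included, came from cells exposed to 4sU, and both replicates descend from 1 culture that was split and passaged separately. The p-values below treat libraries as independent units, although these come from only 2 sister cultures. Such p-values measure the spread among these libraries and not the spread between independent cultures. A step that sets all cells to 1 clock phase is not given in the sources used here. The values are abundances per length, scaled to the same total in each library, so that about 20 units correspond to 1 TPM, the usual unit of a transcript's share of all transcripts. Values of 1 or less are blank in the table and were taken as 0. Depth cannot be read from such values. Introns held 7.07% ± 0.379 (SD, n = 6) of the abundance in total RNA and 10.5% ± 3.30 (SD, n = 6) in labeled RNA, where single libraries ran from 6.99% to 14.8%. All 8 pluripotency markers examined had a mean of at least 20 (range 161 to 7684), whereas 0 of 6 fibroblast markers did (highest 2.72) and 1 of 7 markers of differentiated lineages did (highest 54.0).

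The mammalian clock is a loop of transcription and repression. CLOCK, paired with BMAL1, binds E-boxes and activates the Per and Cry genes, whose proteins return to the nucleus and repress CLOCK:BMAL1. Another loop runs through Nr1d1 and Nr1d2, which encode the heme-binding nuclear receptors REV-ERBα and REV-ERBβ and repress Bmal1 and other genes, and Dbp encodes a PAR bZIP activator that binds D-boxes and carries the rhythm to output genes. Pluripotent stem cells are known to lack an overt circadian rhythm, which appears as they differentiate.

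To show the elements through which these genes are known to be wired together, promoters of 8 members (11 promoters, from 250 bases before to 50 bases after each start site, RefSeq, GRCm38.p6) were searched on both strands for motifs known from clock genes. The E-box searched was CACGTG, which reads the same on both strands. The E′-box was CACGTT, which reads as AACGTG when it lies on the other strand and differs from the E-box in 1 base, so that no match was counted as both. The D-box was TTATGTAA, which on the other strand reads TTACATAA. The Per2 promoter was not analysed here. The E-box occurred in 2 of 11 member promoters against 7.15% of 32851 promoters, the E′-box in 3 of 11 against 4.68%, and the D-box in 1 of 11 against 0.938%. The 75-base windows that hold a match are printed 5′ to 3′ on the strand of the gene, with the matches in capitals. A match is a string of letters in a window, not a measured binding site, and no match in the other promoters says only that these letters are not in those bases. Cry1, at chr10:85185074-85185148 on the minus strand, has an E′-box and an E-box that begin 79 and 60 bases before the start site.
Cry1: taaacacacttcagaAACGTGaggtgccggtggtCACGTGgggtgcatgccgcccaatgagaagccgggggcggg
Per1, at chr11:69098768-69098842 on the plus strand, has an E-box 166 bases before one of its annotated start sites, downstream of the first.
Per1: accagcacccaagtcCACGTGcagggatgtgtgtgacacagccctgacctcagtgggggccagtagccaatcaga
Per3, at chr4:151044811-151044885 on the minus strand, has 2 D-boxes, which begin 205 and 158 bases before a start site.
Per3: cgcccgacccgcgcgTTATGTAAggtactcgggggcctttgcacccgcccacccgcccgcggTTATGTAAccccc
Cry2, at chr2:92434176-92434250 on the minus strand, has an E′-box 166 bases before a start site.
Cry2: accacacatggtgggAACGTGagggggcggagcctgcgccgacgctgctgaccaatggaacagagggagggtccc
Nr1d1, at chr11:98775378-98775452 on the minus strand, has an E′-box 28 bases before the start site.
Nr1d1: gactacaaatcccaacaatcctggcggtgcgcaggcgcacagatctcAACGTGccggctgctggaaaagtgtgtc
The genes themselves span, in GRCm38.p6, chr11:69095108-69109965 (Per1), chr1:91415977-91459351 (Per2), chr4:150997018-151044707 (Per3), chr10:85131700-85185054 (Cry1), chr2:92403646-92434085 (Cry2), chr11:98767932-98775377 (Nr1d1), chr14:18204056-18239106 (Nr1d2), chr7:45705100-45710203 (Dbp) and chr5:76209868-76305603 (Clock).

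In total RNA the clock genes were expressed at low levels, with 8 of them between 25.7 and 96.7 in mean exonic abundance, while Per2 was almost unlisted. Exonic abundance, summed over the transcripts of each gene, was highest for Clock, the activator (ENSMUSG00000029238), at 96.7 ± 15.2 (SD, n = 6 total libraries), or about 4.84 TPM. Nr1d2 followed at 81.2 ± 5.51, then Per1 at 74.3 ± 6.96, Per3 at 61.8 ± 10.9, Nr1d1 at 55.7 ± 9.13, Cry1 at 54.1 ± 5.25, Cry2 at 42.3 ± 5.42 and Dbp at 25.7 ± 9.94, all mean exonic abundance ± SD over the same 6 libraries. Against 13977 genes that passed the filter, with a median exonic abundance of 164, these levels ranked between the 7.65th percentile (Dbp) and the 37.5th (Clock).

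Neighbours in the order of mean abundance were compared over the 6 total libraries with a two-sided exact permutation test of sign changes. The order was taken from the means of these same libraries, so the values tested also set which gene is the upper one. The test can give no p below 0.0312 however far apart a pair lies. After Benjamini-Hochberg adjustment over the 8 pairs 0 passed, and because of that floor this count does not show which levels are alike. Dbp was above Per2 in 6 of 6 libraries with ranges that do not overlap (10.8 to 40.5 against 0 to 1.32), and Cry2 was above Dbp in 6 of 6 (mean log2 difference 0.78 ± 0.74, SD), although their ranges overlap. Both pairs reached the floor of the exact permutation test (adjusted p = 0.125). The other 6 pairs did not keep 1 order in all libraries. The upper gene was higher in 5 of 6 for Clock over Nr1d2, Per1 over Per3, Per3 over Nr1d1 and Cry1 over Cry2, in 4 of 6 for Nr1d2 over Per1, and in 3 of 6 for Nr1d1 over Cry1, the closest pair. When only the most abundant transcript of each gene was used, the order became Clock, Cry1, Nr1d2, Nr1d1, Cry2, Per3, Per1, Dbp and Per2. Clock over Cry1, Nr1d1 over Cry2, Per1 over Dbp and Dbp over Per2 then held in 6 of 6 libraries, again at the floor (exact permutation adjusted p = 0.0625).

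Per2, which encodes a core repressor, was listed far less often than its paralogs. GENCODE M1 holds 2 transcripts of Per2, of which only 1 is in the table, so the values below do not cover the other. This transcript, ENSMUST00000069620, was listed in exons of only 2 of 12 libraries. Its exonic abundance was 1.32 in total RNA at 15 min (replicate 2) and 1.26 in labeled RNA at 60 min (replicate 1). Its introns were listed only in labeled RNA, at an intronic abundance of 1.01 at 15 min and 1.13 at 60 min, both in replicate 1. All these values lie at or just above the lowest value in the table, 1.01, so a level of Per2 below that limit and no Per2 RNA cannot be told apart, and Per2 entered no fit of labeled against total RNA. Per1 and Per3 were listed in all 12 libraries.

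**Figure D1:**
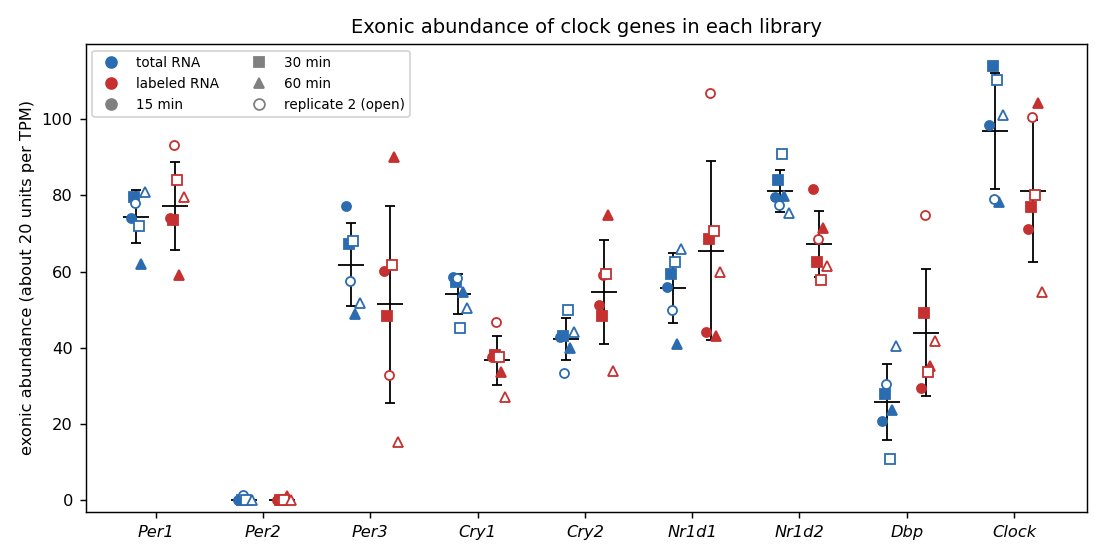
Exonic abundance (linear scale, about 20 units per TPM) of the 9 clock genes in each of 12 libraries, with total RNA in blue and labeled RNA in red, a symbol for each labeling time, open symbols for replicate 2, and bars for the mean ± SD of 6 libraries. Cry1 sits lower in labeled than in total RNA with ranges that overlap by 1 value of each, Per3 and Nr1d1 spread widely in labeled RNA, and Per2 lies at or near 0 throughout.

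The transcripts behind these sums differed between genes. Cry1 and Clock each had 1 transcript in the table, the protein-coding ENSMUST00000020227 and ENSMUST00000075159. GENCODE M1 holds 4 transcripts of Clock, and 3 each of Nr1d1 and Nr1d2, of which 2 each are in the table. Transcripts outside the table do not enter the sums of these genes or their order. In Nr1d1 the protein-coding ENSMUST00000064941 held 78.9% of the exonic abundance in total RNA, in Cry2 the protein-coding ENSMUST00000090559 held 57.4%, and in Nr1d2 the protein-coding ENSMUST00000090543 held 56.2%, the rest of Nr1d2 being a transcript annotated as a retained intron. In Per3 the largest share, 30.9%, fell to ENSMUST00000128283, which is annotated as a retained intron, ahead of 25.7% for the protein-coding ENSMUST00000103204. Per1 was divided among 6 transcripts, led by ENSMUST00000101004 with 22.7%, and Dbp among 5, led by ENSMUST00000107740 with 26.6%. Some isoforms had nearly equal values: ENSMUST00000107741 of Dbp stood at 0.871 to 1.02 times ENSMUST00000107740 over the 12 libraries (median 0.962), and ENSMUST00000142392 of Per1, annotated for nonsense-mediated decay, at 0.858 to 1.03 times ENSMUST00000101004 (median 0.975). Whether reads shared by isoforms were split or counted for each of them cannot be told apart from these values, and a sum over many isoforms could then be too high.

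To ask how newly transcribed RNA of the clock genes compared with the steady state, labeled and total libraries were set against each other with limma on log2(abundance + 1), with labeling time as a covariate and Benjamini-Hochberg adjustment over 13977 genes. A gene was called at an adjusted p under 0.05. Cry1 was lower in labeled RNA, and it was the only one of the 8 tested members called, against 16.8% of all genes (5.28% higher and 11.6% lower). The median log2 difference was −0.11 over the 8 members and −0.05 over all genes.

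Cry1, a repressor of CLOCK:BMAL1, had exonic abundances from 27.1 to 46.7 in labeled RNA (median 37.6, n = 6) and from 45.2 to 58.4 in total RNA (median 56.0, n = 6). The ranges overlap only through the highest labeled value, from replicate 2 at 15 min, and the lowest total value, from replicate 2 at 30 min. The log2 difference was −0.56 ± 0.15 (SE), with a limma adjusted p of 0.0242, and the labeled mean was 0.680 times the total mean. As Cry1 has 1 transcript in the table, the fit on 45537 transcripts saw the same values and called it as well (adjusted p = 0.0171 by limma), against 17.3% of all transcripts. Of 27 member transcripts 6 passed the filter in that fit, and 1 of 6 was called. The gene call is narrow. It was kept in 14 of 19 other settings, in which the adjusted p ran from 0.0132 to 0.0643, and was lost with the replicate number as a block (limma adjusted p = 0.0643) and when any 1 of 4 total libraries was left out, namely replicate 1 at 15 min (0.0532), at 30 min (0.0578) or at 60 min (0.0511), or replicate 2 at 60 min (0.0534).

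Its paralog Cry2 had a difference of the other sign that did not pass. Exonic abundance of Cry2 ran from 34.0 to 74.8 in labeled RNA (median 55.2) and from 33.5 to 50.01 in total RNA (median 43.0), a log2 difference of 0.33 ± 0.19 (SE; limma adjusted p = 0.266). The difference between the 2 paralogs was not tested. Of the exonic bases of Cry2, 295 of 6320 overlap D930015M05Rik on the opposite strand, an annotation whose exonic abundance was 6.002 ± 1.75 in total and 13.5 ± 5.13 in labeled RNA (SD, n = 6), and whether the libraries keep strand is not given in the sources used here.

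Among the Period genes, Per1 gave nearly the same exonic abundance in both fractions, from 59.0 to 93.1 in labeled RNA (median 76.7) and from 61.9 to 80.8 in total RNA (median 75.9), with a log2 difference of 0.05 ± 0.13 (SE). Per3 was more variable in labeled RNA, where it ran from 15.3 (60 min, replicate 2) to 90.0 (60 min, replicate 1) around a median of 54.2, than in total RNA, where it ran from 48.9 to 77.2 around a median of 62.3. Both ends of the labeled range of Per3 thus came from the same labeling time. The log2 difference for Per3 was −0.43 ± 0.34 (SE; limma adjusted p = 0.414), and without the 2 labeled libraries of highest intronic share, replicate 1 at 15 min and at 60 min, it was −0.89 ± 0.24 (limma adjusted p = 0.0386). That setting was added after the values had been seen.

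The receptors, the output gene and the activator did not pass either. Nr1d1 stood at 43.0 to 107 in labeled RNA (median 64.2) against 40.9 to 65.9 in total RNA (median 57.6), with a log2 difference of 0.18 ± 0.22 (SE). Nr1d2 stood at 57.8 to 81.8 (median 65.6) against 75.2 to 90.7 (median 79.7), with a log2 difference of −0.27 ± 0.12 (SE; limma adjusted p = 0.149). Clock stood at 54.6 to 104 (median 78.5) against 78.1 to 114 (median 99.6), with a log2 difference of −0.27 ± 0.18 (SE; limma adjusted p = 0.321). For each of these 3 genes the labeled and total ranges overlap.

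Dbp had the highest ratio of labeled to total exonic abundance among the members, 1.71 as a ratio of means, without passing the test. It ran from 29.5 to 74.8 in labeled RNA (median 38.5) and from 10.8 to 40.5 in total RNA (median 25.9), and the highest labeled value came from replicate 2 at 15 min. The log2 difference was 0.78 ± 0.31 (SE; limma adjusted p = 0.106). Overlap on the opposite strand concerns 491 of 2945 exonic bases of Dbp, shared with Sphk2, whose exonic abundance was 52.0 ± 14.6 in total and 56.0 ± 19.4 in labeled RNA (SD, n = 6). It also concerns 263 of 3124 exonic bases of Nr1d1, shared with Thra, at 51.0 ± 15.6 and 67.6 ± 11.5. The part of these overlaps in the values of Dbp and Nr1d1 was not tested.

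Introns stand for RNA that has not yet been spliced, and intronic abundance was compared in the same way for 14780 genes with a mean of at least 5. Intronic abundance of Per1 and Dbp was higher in labeled RNA, so that 2 of 8 members were called. That share lies near the background, since 30.4% of all genes were called, 30.2% higher and 0.21% lower. The median log2 difference was 0.45 over the members and 0.65 over all genes, with 8 of 8 members positive. Without the 2 labeled libraries of highest intronic share, replicate 1 at 15 min and at 60 min, the medians were 0.12 and 0.24 with 4 of 8 members positive, and without replicate 1 at 15 min or at 60 min alone the members' median was 0.28 or 0.33 with 5 of 8 positive.

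Per1 introns ran from 16.3 to 32.2 in labeled RNA (median 19.4) and from 4.83 to 17.4 in total RNA (median 9.71). The ranges overlap, with replicate 2 at 60 min and at 30 min the highest total libraries. The log2 difference was 0.95 ± 0.29 (SE; limma adjusted p = 0.0228). This call was lost when a single library was left out in 4 cases, with a limma adjusted p of 0.0710 without total replicate 1 at 15 min, 0.0597 without total replicate 1 at 30 min, 0.0614 without total replicate 1 at 60 min and 0.0754 without labeled replicate 2 at 30 min.

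Dbp introns were listed at 0 in 2 total libraries (replicate 1 at 60 min and replicate 2 at 15 min) and at 9.43, 18.4, 1.15 and 3.08 in the others. In labeled RNA they ran from 6.78 to 24.8 (median 14.8). The fitted log2 difference was 2.13 ± 0.66 (SE; limma adjusted p = 0.0253), but its size depends on the pseudocount because of the 2 zeros, and it was 0.51 with a pseudocount of 20. The call was lost without either of the total libraries at 0 (limma adjusted p = 0.0631 without replicate 1 at 60 min and 0.0688 without replicate 2 at 15 min), without total replicate 2 at 30 min (0.0626), and without the 2 labeled libraries of highest intronic share (0.0795).

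Cry2 introns had a log2 difference of 0.90 ± 0.33 (SE) at a limma adjusted p of 0.0509, and passed with the replicate number as a block (adjusted p = 0.0213). They also passed without labeled replicate 2 at 15 min (0.0116) and without labeled replicate 2 at 60 min (0.0137). The other 5 tested members had log2 differences of 0.49 (Per3), 0.41 (Nr1d1), 0.19 (Cry1), 0.11 (Clock) and 0.08 (Nr1d2). Sphk2, next to Dbp, had an intronic abundance of 20.1 ± 6.45 in total and 60.4 ± 18.2 in labeled RNA, and Thra, next to Nr1d1, had 34.0 ± 7.96 and 96.3 ± 37.4 (SD, n = 6). Both exceed the introns of the clock gene beside them.

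Scaling bears on these directions. When each library was shifted to a common median of its intronic values, the median difference of all genes moved from 0.65 to 0.01 and the calls over all genes went from 4463 higher and 31 lower to 1024 higher and 779 lower. Neither Per1 (log2 difference 0.31, limma adjusted p = 0.571) nor Dbp (1.49, 0.169) was then called, and Nr1d2 and Clock were called lower, at −0.56 (adjusted p = 0.0220) and −0.53 (adjusted p = 0.0353). The direction of an intronic difference is therefore given relative to the total of the library, introns and exons together.

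**Figure D2:**
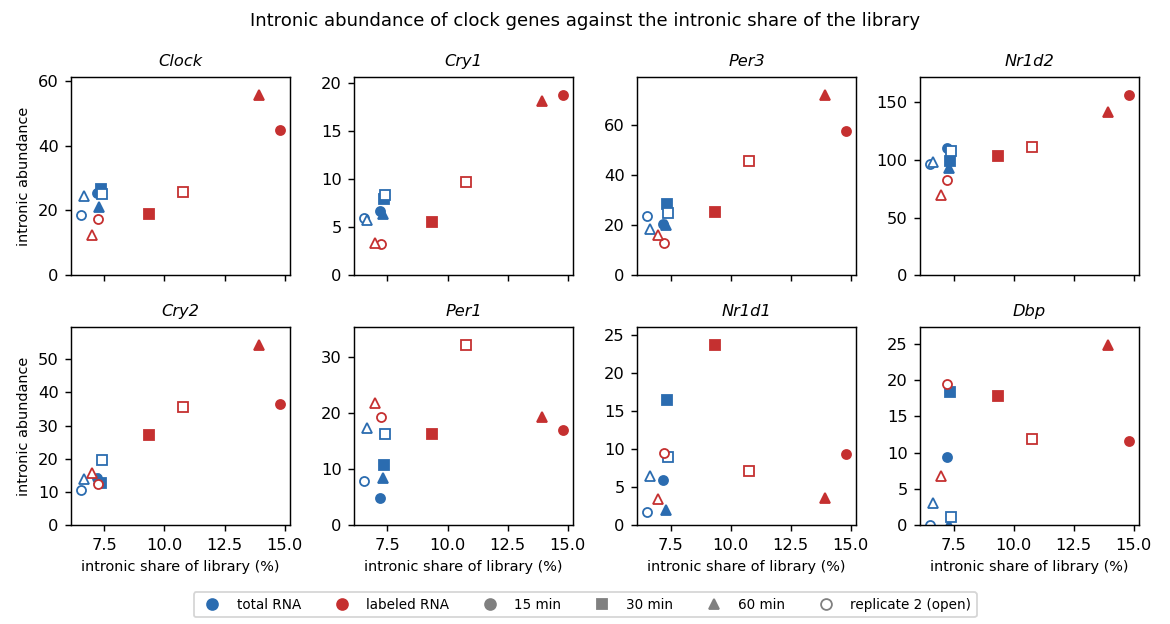
Intronic abundance of 8 clock genes (each panel has its own linear axis from 0) against the share of the library's abundance that lies in introns, in percent, for 12 libraries. In Clock, Cry1, Per3, Nr1d2 and Cry2 the 2 highest values are the labeled libraries with shares of 14.8% and 13.9%, and in Per1, Nr1d1 and Dbp they are not.

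The 2 labeled libraries with the highest intronic share were replicate 1 at 15 min (14.8%) and replicate 1 at 60 min (13.9%). They also gave the 2 highest labeled intronic values of Clock (55.5 and 44.7 against a labeled median of 22.2), Per3 (71.8 and 57.4 against 35.5), Cry1 (18.7 and 18.1 against 7.63), Cry2 (54.2 and 36.6 against 31.4) and Nr1d2 (156 and 142 against 107). These are the 5 members whose gene spans at least 20 kb in GENCODE M1, from 30.4 kb (Cry2) to 93.8 kb (Clock). In the 3 shorter members, Dbp (5.07 kb), Nr1d1 (7.40 kb) and Per1 (14.7 kb), it was the case for 0 of 3. Over all genes that passed the intronic filter it was the case for 76.4%, made up of 90.4% of genes of at least 20 kb and 59.0% of shorter ones. The boundary of 20 kb was chosen after the values had been seen, and no test was made.

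Expressed as the ratio of intronic to exonic abundance within a gene, which does not depend on the scaling between libraries, Per1 and Per3 were higher in labeled RNA. Thus 2 of 8 members were called, against 25.7% of 10228 genes (25.5% higher), with a median log2 difference of 0.66 for members and 0.70 for all genes. Without the 2 labeled libraries of highest intronic share these medians were 0.22, with 6 of 8 members positive, and 0.30, and without labeled replicate 1 at 15 min alone the members' median was 0.42. Per1 ratios ran from 0.209 to 0.384 in labeled RNA (median 0.252) and from 0.0653 to 0.227 in total RNA (median 0.137), a log2 difference of 0.91 ± 0.30 (SE; limma adjusted p = 0.0367). Per3 ratios ran from 0.392 to 1.05 in labeled RNA (median 0.768) and from 0.263 to 0.422 in total RNA (median 0.388), a log2 difference of 0.92 ± 0.28 (SE; limma adjusted p = 0.0302). In both genes the ranges overlap.

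These 2 calls were kept in few other settings, 6 of 17 for Per1 and 8 of 17 for Per3, though the log2 difference stayed positive throughout (0.37 to 1.03 for Per1 and 0.62 to 1.07 for Per3). Leaving out any 1 of the 6 total libraries, labeled replicate 1 at 60 min or labeled replicate 2 at 30 min ended the call of Per1, with limma adjusted p between 0.0510 and 0.106. The same libraries ended the call of Per3, except total replicate 2 at 15 min, with adjusted p between 0.0525 and 0.0808. Cry1 (log2 difference 0.75), Cry2 (0.57), Clock (0.38), Nr1d2 (0.36) and Nr1d1 (0.24) did not pass, and neither did Dbp (1.35 ± 0.62, SE; limma adjusted p = 0.104). With the replicate number as a block, Dbp passed at an adjusted p of 0.04997. It also passed without total replicate 1 at 15 min (0.0471), and without labeled replicate 2 at 15 min Cry1 (0.0266) and Cry2 (0.0080) passed.

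**Figure D3:**
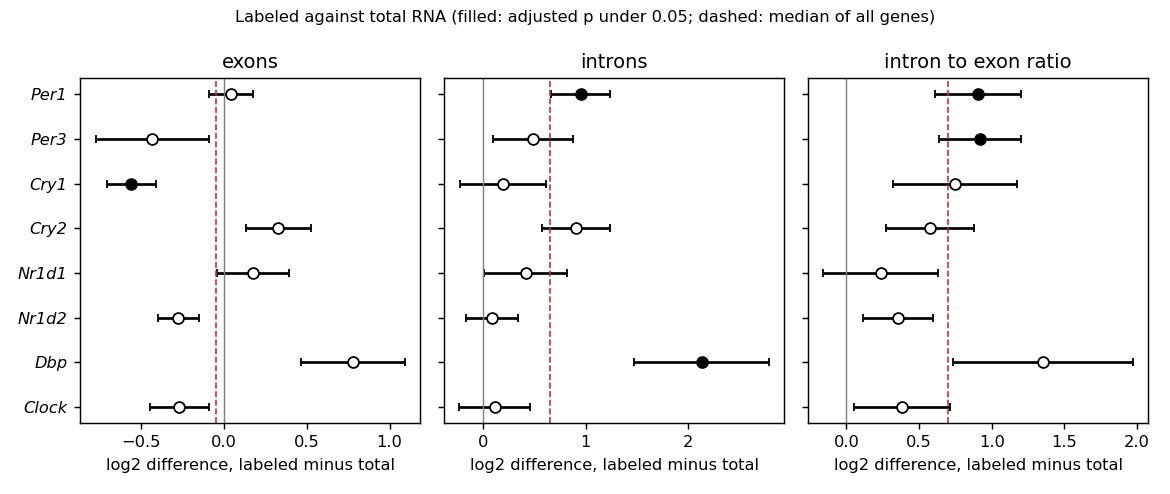
Log2 difference between labeled and total RNA (labeled minus total) for 8 clock genes in exons, introns and the intron to exon ratio, with bars for 1 SE from limma, filled points for an adjusted p under 0.05, and a dashed line at the median of all genes tested. Cry1 is filled and negative in exons, Per1 and Dbp are filled in introns, and Per1 and Per3 are filled in the ratio.

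At steady state Nr1d2 had more intronic than exonic abundance, which was not so for the mean ratio of the other 7 members that passed the filter. In total RNA Nr1d2 had an intronic abundance of 92.7 to 111 (median 98.8) and an exonic abundance of 75.2 to 90.7 (median 79.7), so that introns exceeded exons per length in 6 of 6 total libraries (ratio 1.16 to 1.39). The ratio of its means, 1.24, ranked at the 95.8th percentile of 10228 genes, whose median was 0.176. The protein-coding transcript ENSMUST00000090543 held most of the intronic abundance, 83.3 ± 5.86 (SD, n = 6) against an exonic abundance of 45.6 ± 3.27. In the transcript annotated as a retained intron, ENSMUST00000143308, introns were lower (17.7 ± 3.63) than exons (35.6 ± 4.21). Nr1d1 had a ratio of means of 0.126, at the 37.7th percentile. The other members ranked at the 75.8th percentile (Per3, 0.366), the 73.2nd (Cry2, 0.336), the 62.8th (Clock, 0.243), the 56.6th (Dbp, 0.207), the 43.7th (Per1, 0.148) and the 37.9th (Cry1, 0.127).

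Whether the RNA of the clock genes shifted during the hour of labeling was asked by comparing 60 with 15 min in the means of the 6 groups. In labeled RNA 0 of 8 members and 0 of 13977 genes (0%) were called by limma, and at an unadjusted p under 0.05 there were 178 genes and 0 members. In total RNA 0 genes (0%) were called, with 108 genes and 0 members at an unadjusted p under 0.05, and for the dependence of the labeled to total difference on time 0 genes (0%) were called, with 162 genes and 0 members. With 2 libraries a group these fits give wide errors, and the counts do not show that levels were equal.

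In labeled RNA all 8 members had a negative log2 difference between 60 and 15 min, from −0.46 ± 0.28 (SE) for Cry1 to −0.12 ± 0.37 for Cry2, where the median of the 8 was −0.26 and that of all genes −0.09. This rests on single libraries, since 3 of 8 members were positive without labeled replicate 2 at 15 min (median −0.07) and 3 of 8 without labeled replicate 2 at 60 min (median −0.19). Without labeled replicate 1 the median was −0.42 (15 min, 1 of 8 positive) or −0.45 (60 min, 0 of 8 positive). For Cry1 the labeled exonic abundance was 37.5 and 46.7 at 15 min, 38.1 and 37.6 at 30 min, and 33.6 and 27.1 at 60 min. Both 60-min values of Cry1 were below both 15-min values, and the limma adjusted p was 1. With 2 libraries against 2 such an order arises often without any change, and its share over all genes was not counted. For Nr1d1 it was 44.2 and 107 at 15 min and 43.0 and 59.9 at 60 min, where the ranges overlap. In total RNA the differences went in both directions, from −0.40 ± 0.65 (SE) for Per3 to 0.29 ± 0.56 for Dbp.

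Rates of synthesis, processing and degradation were formed from the same abundances: synthesis as labeled exonic abundance per hour of labeling, processing as synthesis over intronic abundance in total RNA, and degradation as synthesis over exonic minus intronic abundance in total RNA. Because each library has the same total, a gene that keeps the same share of labeled RNA has a rate that falls with labeling time by construction. For Per1, synthesis was 334, 158 and 69.2 abundance units per hour at 15, 30 and 60 min. They are therefore given as averages over the times and as percentiles among genes, with no test. The degradation rate uses the values of the exonic labeled to total comparison and is not independent of it. The processing rate divides by the intronic abundance in total RNA that also forms the steady-state intron to exon ratio. It is therefore not independent of that ratio.

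Synthesis of the 8 members lay close to the middle of all genes, between the 42.1st percentile (Cry1, 91.5 units per hour) and the 54.4th (Clock, 193 units per hour), with a median member at the 49.4th of 20732 genes. That ranking includes genes below the filter used for the levels. Processing spread much further. Nr1d2 was lowest, at 1.59 per hour and the 10.3rd percentile, followed by Per3 at 5.11 per hour and the 30.9th, whereas Per1 (23.1 per hour) reached the 78.6th and Nr1d1 (33.3 per hour) the 86.5th. Between them lay Clock (8.38 per hour), Cry2 (9.45) and Cry1 (13.6), while Dbp (8.47) had a rate at 30 min alone. The median of 14558 genes was 9.58 per hour. The high rate of Nr1d1 rests on low intronic values in total RNA, 1.82 to 16.6, and was 86.5 per hour without replicate 1 and 19.6 per hour without replicate 2. The rate of Nr1d2 was 1.51 and 1.66 per hour in the same settings. Both REV-ERB genes had nearly the same average synthesis, 164 (Nr1d1) and 163 (Nr1d2) units per hour, but the replicates of Nr1d1 were unlike. At 15 min its labeled exonic abundance was 44.2 in replicate 1 and 107 in replicate 2, against 81.8 and 68.6 for Nr1d2. Their processing rates lay at opposite ends of the members, a difference that was not tested.

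Degradation was lowest for Cry1, at 1.88 per hour and the 11.5th percentile of 12064 genes, whose median was 2.97 per hour. Clock (2.72), Per3 (2.83) and Per1 (2.84 per hour) lay between the 43.1st and the 46.8th percentile, Nr1d1 (3.37) at the 58.4th and Cry2 (4.69) at the 73.6th. Dbp had a rate at 30 min alone, 8.62 per hour, since this was the only time at which its introns were listed in both total libraries. At 30 min the other members ran from 1.75 (Cry1) to 3.56 per hour (Cry2). Single time and replicate pairs of Dbp ran from 1.12 to 10.3 per hour over 4 pairs, and its percentile in the plot, 87.1, sets a 30-min value against averages over all times. Nr1d2 had no degradation rate because its introns exceeded its exons, and Per2 had no rate of any kind. The 2 Cryptochrome genes thus stood at opposite sides of the median, with the 6 time and replicate pairs from 0.605 to 3.57 per hour for Cry1 and from 1.13 to 10.3 per hour for Cry2, ranges that overlap and include the effect of labeling time.

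**Figure D4:**
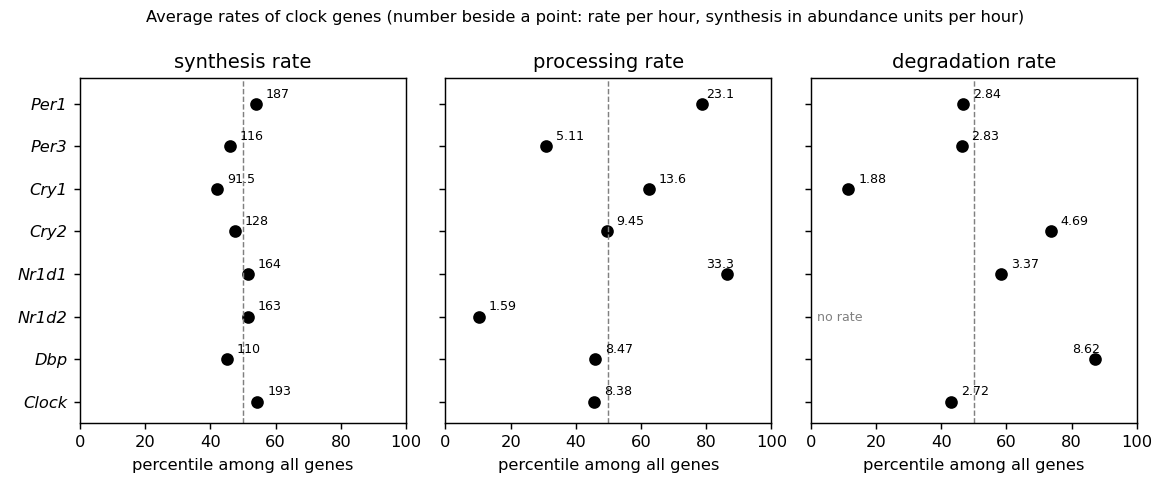
Percentile of the average synthesis, processing and degradation rate of 8 clock genes among all genes with that rate, with the rate per hour printed beside each point (synthesis in abundance units per hour) and a dashed line at the 50th percentile. Synthesis lies within 42.1 to 54.4, whereas processing runs from 10.3 (Nr1d2) to 86.5 (Nr1d1) and degradation from 11.5 (Cry1) to 73.6 (Cry2), or 87.1 for Dbp, whose processing and degradation rates come from 30 min alone.

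A list of 21 other clock genes was measured in the same way. In exons 14 of them passed the filter and 0 of 14 were called by limma. Among those below the filter were Npas2, the ROR activators Rora and Rorb, the repressors Nfil3 and Bhlhe41, and Fbxl21. Of 36 tested transcripts of this list, 2 were called higher in labeled RNA and 1 lower, against 5.28% and 12% of all transcripts. ENSMUST00000164673 of Tef, a PAR bZIP relative of Dbp, was higher (log2 difference 0.84, limma adjusted p = 0.0419). The filter took the mean of both fractions, and whether this transcript would pass on total RNA alone was not examined. ENSMUST00000146837 of the kinase gene Csnk1d was lower (log2 difference −0.52, limma adjusted p = 0.0325).

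In introns 5 of 16 tested genes of this list were higher in labeled RNA and 0 were lower, with Tef at a log2 difference of 0.81, Usp2 at 1.13, Timeless at 1.15, the kinase gene Csnk1e at 1.27 and the E-box repressor Bhlhe40 at 1.93. Timeless, which encodes a replication fork protein named after a fly clock gene, was the one of these whose groups did not overlap. It ran from 77.0 to 121.9 in total RNA (median 104) and from 122.3 to 411 in labeled RNA (median 252), so the groups almost touch. The share of all genes without overlap was not counted. Bhlhe40 (mean 1.37 in total and 9.58 in labeled RNA) and Usp2 (4.67 and 11.5) passed the intronic filter only through their labeled values. In the intron to exon ratio 4 of 14 were higher, Timeless (1.38), Csnk1e (1.40), Usp2 (1.60) and Bhlhe40 (1.69), and 0 were lower. These shares too lie near the background of all genes.

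Outside both lists, the genes whose exonic profile over the 12 libraries was most like the mean profile of the 8 members were Zscan10 (Pearson r = 0.945), Rcc1 (0.944) and Rmnd5b (0.943). This is a description over libraries that share 2 cultures and a common scaling, taken as the highest of all tested genes.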

How the data were processed

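The deposited values are a signal per transcript, given apart for exons and introns, that the authors obtained by removing rRNA reads with STAR 2.5.0, aligning the rest to exonic and intronic sequence with STAR and quantifying with RSEM. The submitters' processing notes name mm10. The values are length-normalized and sum to nearly the same total in each library (about 20 units per TPM), so they are not counts, depth is not recorded in them, and no counting error or interval can be given. Strandedness and the annotation release are not given in the sources used here. GENCODE M1, on mm9, served for gene names, spans and overlaps only, and 83847 of 121429 transcripts matched it. Coordinates and promoters are from RefSeq tables on GRCm38.p6, which is the mm10 assembly.

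Blanks were set to 0 and values summed per gene. On log2(value + 1), libraries were compared by limma (3.58.1, under R 4.3.3) with a mean-variance trend, labeling time as a covariate and Benjamini-Hochberg adjustment over all features, called at 0.05. This scale understates changes of low genes. Features needed a mean of at least 20 (exons) or 5 (introns). Contrasts of time used the means of the 6 groups with 1 common spread. Levels in total RNA were compared by exact permutation of signs. Rates followed the form of the published method up to 1 factor per labeling time, without INSPEcT. Python 3.11.15, pandas 2.3.3, matplotlib 3.10.9, scipy 1.17.1 and numpy 2.4.6 were used, and limma and the permutation test were tested on simulated data.

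Samples were grouped by fraction, labeling time and replicate as the labels give them. Replicate numbers come from the labels, which do not tie a number to a shared batch. A labeled and a total library with the same number deviated from their group means with a correlation of −0.07 (15 min), 0.05 (30 min) and −0.19 (60 min). Labeled RNA was pulled down from extracted RNA, and correlations near 0 cannot exclude that same-numbered libraries are paired. The main fits did not treat the number as a pairing, and fits with it as a block are given among the alternatives. Every member that could be measured is named in each comparison of fractions and in the rates. Of the 21 other clock genes, those that passed a test or failed the filter are named, apart from some that are not reported here, and transcripts are named where they lead their gene or passed. The 3 genes of most similar profile are named. The members, lists and tests were chosen with earlier results of these data known. Alternatives were other pseudocounts, no filter, median scaling, the replicate block, each library left out, and, added after the values were seen, the most abundant transcript per gene, the block with the numbers crossed at 60 min, and leaving out the 2 labeled libraries of highest intronic share.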

Additional observations from a re-analysis of the deposited data

Results flagged for a closer look

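Per2 met the criterion for a library far from the other 5 of its fraction in both fractions. Its exonic abundance was 1.26 in labeled RNA at 60 min (replicate 1) and 0 in the other 5 labeled libraries, and 1.32 in total RNA at 15 min (replicate 2) and 0 in the other 5 total libraries. With 35 groups of 6 libraries examined, 2 were found. In both, 5 values are blanks taken as 0, so 1 listed value meets the criterion whatever its size. The 1.75 groups otherwise given by chance are therefore no measure for them. Both values lie just above the level at which the table lists a value at all.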

How the results depend on the processing

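Depth could not be read from the values, and low introns (Dbp, Nr1d1, Per2) lie near the limit of 1 below which values are blank. Of 945 member values under the alternatives, 48 that were not called changed sign, and the reversed calls were those of Nr1d2 (−0.56) and Clock (−0.53) in introns under median scaling. The number of members called in exons (1 in the report) was 2 without the 2 labeled libraries of highest intronic share and 0 to 1 when any 1 library was left out. In introns (2) it was 1 without those 2 libraries and 0 to 3 with 1 library left out. With the most abundant transcript per gene it was 0 of 5 tested members. The 2 called genes, Per1 and Dbp, fell below the intronic filter there and were not tested, so this 0 says nothing about their calls. In the ratio (2) it was 1 with a pseudocount of 20, 0 without a filter and 0 without those 2 libraries. With 1 library left out it was 0 to 4. With the most abundant transcript it was 0 of 4 tested members, but the 2 called genes, Per1 and Per3, fell below the exonic filter there and were not tested. The counts for time stayed at 0 for members in every alternative run.

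With the replicate number as a block 0 members were called in exons of genes and 0 in transcripts, while 3 were called in introns and 3 in the ratio. The block took the calls over all genes from 2353 to 1270 in exons, and from 7888 to 4470 over transcripts. With the numbers crossed at 60 min there were 2716 and 9153. Numbers are not known to pair the samples.

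Over all genes, calls with 1 library left out ran from 1436 to 2931 in exons, from 4753 to 10439 over transcripts, from 2675 to 8052 in introns and from 1013 to 6263 in the ratio, which was 1720 (2630 in the report) without the 2 libraries. Median scaling changed the split in exons from 738 higher and 1615 lower to 1333 and 1641, over transcripts from 2403 and 5485 to 4145 and 4615, and the intronic calls from 4494 to 1803.

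The median percentile of synthesis was 47.0, 46.2 and 43.0 at 15, 30 and 60 min alone, 52.3 to 52.9 with 1 replicate left out and 48.3 with the most abundant transcript. That of processing was 51.5 to 58.0 with 1 replicate left out (47.7 in the report), and that of degradation was 59.2 at 30 min alone and 52.5 with the most abundant transcript (46.8 in the report).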
